A study of Mus musculus with 3 samples.

Results

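The transmembrane channel-like genes of the mouse, Tmc1 to Tmc8, were examined in chromatin accessibility data from hair follicle stem cells (HFSCs) of mice with and without Msx2. The 8 genes are 8 of the 21938 protein-coding genes of the GENCODE M21 basic annotation of GRCm38, and they were chosen by a peak call, as Tmc8 carried a promoter peak in the wild-type library alone. The calls and tag numbers at that peak are therefore given as a description, with no test. The assay was Omni-ATAC-seq, where Tn5 transposase inserts adapters into accessible DNA, and 1 list of MACS2 peaks was available for each of 3 libraries.

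All 3 libraries came from HFSCs that were sorted by flow cytometry from the dorsal skin of untreated mice aged 6 months whose hair follicles were resting (telogen). The gate took cells that were CD34+ and CD49f+ and Sca-1-. The Msx2-WT group (n = 1) held wild-type C57BL/6J mice matched for hair cycle. The Msx2-KO group (n = 2) held mice with a germline knockout made by a pMC1-neo cassette upstream of exon 2. By that design the gene is disrupted in every cell of the animal and not in the HFSCs alone. The labels put the Msx2-WT library in another batch than both Msx2-KO libraries, and genotype and batch cannot be told apart. The peaks of both knockout lists have names with cKO in them, and in replicate 1 the library number in the names differs from the label. The labels were followed. With 1 Msx2-WT library there was no test between genotypes, and the difference between the 2 Msx2-KO libraries is the available measure of spread.

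TMC proteins span the membrane many times and are related to the anoctamin (ANO) and TMEM63 families of channels and scramblases. TMC1 and TMC2 are the pore-forming subunits of the mechanotransduction channel of inner ear hair cells. TMC6 and TMC8, also called EVER1 and EVER2, lie in the endoplasmic reticulum and form a complex with CIB1. Loss of either gene in humans causes epidermodysplasia verruciformis, in which keratinocytes of the skin cannot contain certain papillomaviruses. Tmc6 and Tmc8 lie head to head, so that they are transcribed away from each other from a short stretch between their starts.

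A peak was counted when its −log10 q was above 2, which is a q-value of 0.01, and was placed by its summit, the position of highest tag density. A promoter peak had a summit within 1500 bases of an annotated start site of the gene, and the gene region ran from 10 kb before the outermost start to the gene end. The tag number at each summit was solved from the deposited fold and p-value and is given with an exact Poisson interval of 95%, which covers counting error alone. Depth was read from the commonest background of a library, which was 1.74 tags for Msx2-WT and 0.476 and 0.790 tags for Msx2-KO replicates 1 and 2. The shallowest library was thus replicate 1, and Msx2-WT was 3.65-fold deeper. The numbers of summits past the threshold were 33654, 19450 and 41091 in the same order. The lowest tag number that passed was 9 in Msx2-WT, 5 in replicate 1 and 6 in replicate 2. Of 10 HFSC marker genes, 9, 7 and 9 had a promoter peak, beside 47.0%, 37.8% and 53.5% of all protein-coding genes. Lhx2 and Sox9 had one in all 3 libraries, Krt15 and Cd34 had none in replicate 1, and Nfatc1 had none in any library. Msx2 itself had promoter peaks of 15, 9 and 16 tags. That peak does not check the knockout, since the cassette leaves the start site in place.

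The peak assigned to the Tmc8 promoter in Msx2-WT lay over the start of Tmc6, and a peak covered the Tmc6 start in all 3 libraries. Tmc6 (ENSMUSG00000025572.17, chr11:117765988-117782198, minus strand) starts at 117780639 in the basic annotation, and Tmc8 (ENSMUSG00000050106.17, chr11:117782076-117793110, plus strand) has its nearest basic start at 117782297, 1658 bases away. The peak ran from 117780073 to 117781095 in Msx2-WT, from 117780105 to 117781327 in replicate 1 of Msx2-KO and from 117780029 to 117781572 in replicate 2. Its near edge was 1202, 970 and 725 bases from the Tmc8 start, so the peak reached closer to Tmc8 in both Msx2-KO libraries than in Msx2-WT.

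**Figure D1:**
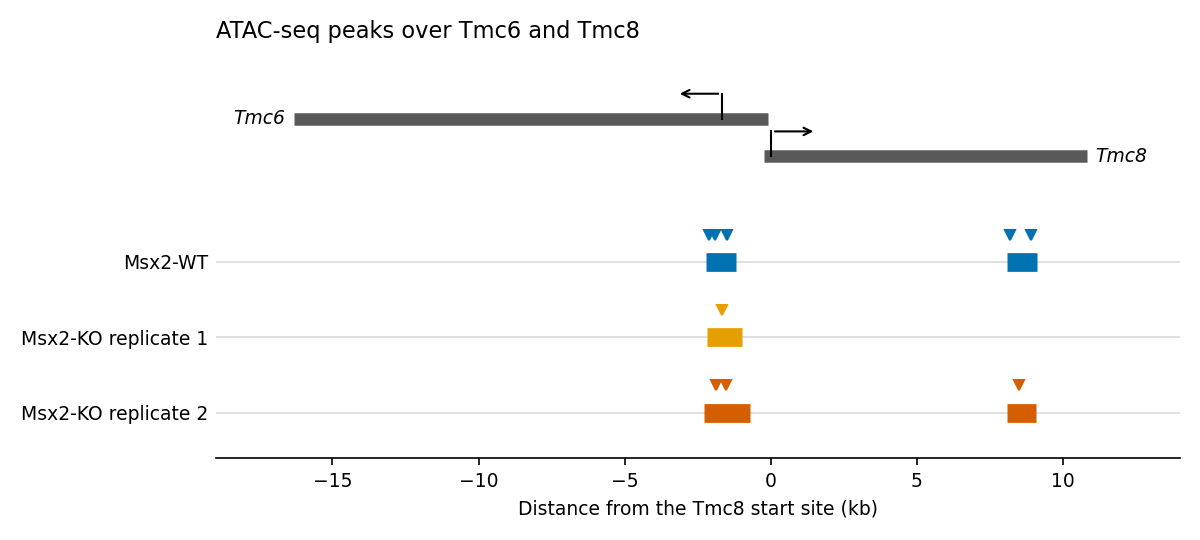
Peaks past a q-value of 0.01 over Tmc6 and Tmc8, with distance from the Tmc8 basic start site in kb on the horizontal axis and the 3 libraries as rows. Grey bars are the genes with arrows at their basic starts, coloured bars are peaks and triangles are summits; the peak over the Tmc6 start is in 3 of 3 libraries and the peak inside Tmc8 in 2 of 3.

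The state of the Tmc8 promoter turned on a few bases. The summit with the most tags in Msx2-WT (51 tags, interval 38.0 to 67.1, −log10 q 27.8) was at 117780810, which is 1487 bases before the Tmc8 start and 13 bases inside the 1500-base limit. The corresponding summit in Msx2-KO replicate 2 (21 tags, interval 13.0 to 32.1, −log10 q 13.1) was at 117780758, 1539 bases before that start and 39 bases outside the limit. In Msx2-KO replicate 1 the single summit (6 tags, interval 2.20 to 13.1, −log10 q 3.36) was at 117780638, 1659 bases before the Tmc8 start and 159 bases outside. These are the values just inside and just outside the limit that selected the family. Further summits of the same peak were at 117780380 (23 tags) and 117780181 (25 tags) in Msx2-WT and at 117780413 (18 tags) in Msx2-KO replicate 2, all inside the first intron of Tmc6.

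**Figure D2:**
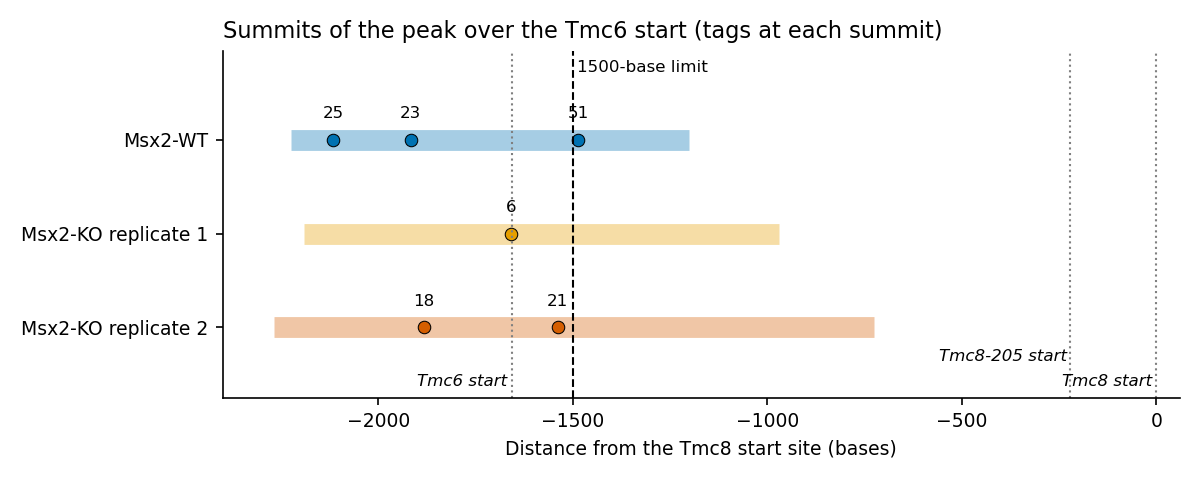
Summits of the peak over the Tmc6 start, with distance from the Tmc8 start site in bases on the horizontal axis and the 3 libraries as rows. Pale bars are the peaks, circles are summits with their tag numbers, the dashed line is the 1500-base limit and dotted lines are start sites; the Msx2-WT summit of 51 tags is 13 bases inside the limit and the Msx2-KO summits of 21 and 6 tags are 39 and 159 bases outside it.

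Relative to Tmc6, the same 3 summits were at its start. They lay 171 bases before the start in Msx2-WT, 119 bases before it in replicate 2 of Msx2-KO and 1 base into exon 1 in replicate 1. Tmc6 therefore had a promoter peak in 3 of 3 libraries and Tmc8 in Msx2-WT alone, although both calls came from 1 peak. No summit of any library fell between the Msx2-WT summit and the Tmc8 start. The call at Tmc8 was lost as a Msx2-WT peak when the window was 500 bases and was present in all 3 libraries when it was 3000 bases or when any overlap of the peak with the window counted. It was present in all 3 also with the comprehensive annotation, in which the transcript Tmc8-205 starts at 117782076 and the summits are 1266, 1438 and 1318 bases before it in Msx2-WT, replicate 1 and replicate 2. Of the 462 promoters called in the Msx2-WT library alone, the Msx2-WT peak overlapped a peak of both Msx2-KO libraries in 8 (1.73%), and Tmc8 was among them. The distance from summit to start was over 1400 bases in 18 of the 462 (3.90%).

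The sequence under the Msx2-WT and Msx2-KO replicate 2 summits shows how near they lie to each other. The stretch just before the basic Tmc8 start shows what the peaks left uncovered. Both were read from the GRCm38 genome and hold no exon of a GENCODE M21 or curated RefSeq transcript. The Tmc6 stretch is chr11:117780693-117780909, 5′ to 3′ on the minus strand, and capitals mark the 10 bases on each side of the Msx2-WT summit (first run) and of the replicate 2 summit (second run). The Tmc8 stretch is chr11:117782211-117782296, 5′ to 3′ on the plus strand, and ends at the base before the basic Tmc8 start, with no capitals because it holds no summit.
Tmc6 upstream: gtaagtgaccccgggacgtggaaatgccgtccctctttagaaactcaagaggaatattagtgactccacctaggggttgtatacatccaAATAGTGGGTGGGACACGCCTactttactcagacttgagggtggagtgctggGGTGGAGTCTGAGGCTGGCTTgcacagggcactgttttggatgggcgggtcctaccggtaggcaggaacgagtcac
Tmc8 upstream: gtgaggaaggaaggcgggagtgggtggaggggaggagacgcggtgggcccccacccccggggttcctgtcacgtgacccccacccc

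The G+C content was 54.4% in the 217 bases of the Tmc6 stretch and 73.3% in the 86 bases of the Tmc8 stretch. In the comprehensive annotation these lie within the transcripts Tmc6-205 and Tmc8-205, outside their exons. The stretches held 7 and 5 CpG dinucleotides, with observed over expected ratios of 0.46 and 0.45. In the RefSeq windows of 300 bases at the start, available for 6 of the 8 genes, the ratio was 0.59 at Tmc6, 0.42 at Tmc8, 0.70 at Tmc7, 0.26 at Tmc4, 0.10 at Tmc3 and 0.08 at Tmc1, beside a median of 0.38 over 32841 windows. Tmc7 had the highest ratio of these 6 genes and no promoter peak in any library.

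Short motifs were searched on both strands of the Tmc6 stretch. The GC box GGGCGG, the core bound by Sp1-like factors, was found once, at position 184 from the 5′ end, and 30.5% of 21827 windows of the same length and distance before protein-coding starts held it. There was no match to the homeobox cores TAATTG (in 6.57% of windows) and TAATTA (4.60%), the kind of core that MSX proteins bind. There was likewise none to CCAAT (31.1%), TATAAA (8.41%), TGACTCA (3.37%), CCGGAAG (4.84%), TGTGGTT (3.48%) or AGATAA (8.36%). In the Tmc8 stretch none of the 9 motifs was found, with shares of windows from 1.25% for TAATTA to 30.3% for GGGCGG. These matches describe the letters of the windows and are no evidence of binding.

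Tag numbers at the Tmc6 start were set over the background of each library, since the libraries differed in depth. The ratio was 29.3 in Msx2-WT (interval 21.8 to 38.6), 12.6 (4.63 to 27.4) and 26.6 (16.5 to 40.6) in replicates 1 and 2 of Msx2-KO. Msx2-WT and replicate 2 were close, replicate 1 was lower, and the intervals of all 3 overlapped. Over the local background around the summit the order turned, with 9.23 in Msx2-WT, 12.6 in replicate 1 and 11.6 in replicate 2. The Msx2-KO libraries had more tags over background at shared regions in general. Across the 13111 regions that all 3 libraries shared, the median ratio was 13.2 in Msx2-WT, 23.1 in replicate 1 and 30.4 in replicate 2. Set over that median, the Tmc6 start was at 2.22 in Msx2-WT (1.65 to 2.92), 0.545 in replicate 1 (0.200 to 1.19) and 0.875 in replicate 2 (0.542 to 1.34). These values belong to the peak that the family was chosen by, so they describe it and test nothing, and the intervals cover counting error alone. The Tmc6 start stood at the 91st percentile of the shared regions of Msx2-WT, at the 14.5th of replicate 1 and at the 39.5th of replicate 2. Genotype, batch and the higher ratio over background of the Msx2-KO libraries at shared regions cannot be told apart in these data.

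A further peak lay inside Tmc8, at chr11:117790369-117791399, and was found in Msx2-WT and Msx2-KO replicate 2. Msx2-WT had summits of 12 tags in intron 10 and 10 tags in intron 12 of Tmc8-202. They lay 7837 and 8548 bases past the nearest basic Tmc8 start, that of Tmc8-204 at 117782658. Replicate 2 had a summit of 7 tags in intron 11, 8125 bases past the same start. The antisense gene Gm11724 overlaps this stretch, and the peaks do not say which strand is served. Over background the highest summits were at 6.90 (3.57 to 12.1) and 8.86 (3.56 to 18.3), which did not differ beyond counting error. No peak was listed there in replicate 1, where the ratio of Msx2-WT would correspond to 3.3 tags and that of replicate 2 to 4.2 tags, and to 5.7 and 3.2 tags after allowing for the median of shared regions. The weakest peak of that library held 5 tags among those past the threshold and 3 among all those listed. The part of depth in this absence was not tested. Because the gene regions of Tmc6 and Tmc8 overlap, the peak counts for both genes. The 10 kb before Tmc6 run from its outermost start, that of Tmc6-209 at 117782198 in the comprehensive annotation, and the summits were 9856 to 10567 bases before the basic start.

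Across the family, few genes had a promoter peak. Of the 8 genes, Tmc6 and Tmc8 (2 genes) had such a peak in Msx2-WT, Tmc6 (1 gene) in replicate 1 of Msx2-KO, and Tmc6 and Tmc1 (2 genes) in replicate 2, while 47.0%, 37.8% and 53.5% of all protein-coding genes had them in the same order. A peak in the gene region was found for 4, 2 and 5 of the 8, beside 60.5%, 48.7% and 65.5% of all genes. A promoter peak of the Msx2-WT library alone was found for 1 of the 8, the gene that chose the family, beside 2.11% of all genes, and one in both Msx2-KO libraries alone for 0 of the 8, beside 2.31%. Merged over libraries, the members held 8 regions with a peak, of which 1 was in all 3 libraries, 2 in Msx2-WT and replicate 2, 1 in Msx2-WT by itself and 4 in replicate 2 alone. Replicate 1 had no region of its own.

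**Figure D3:**
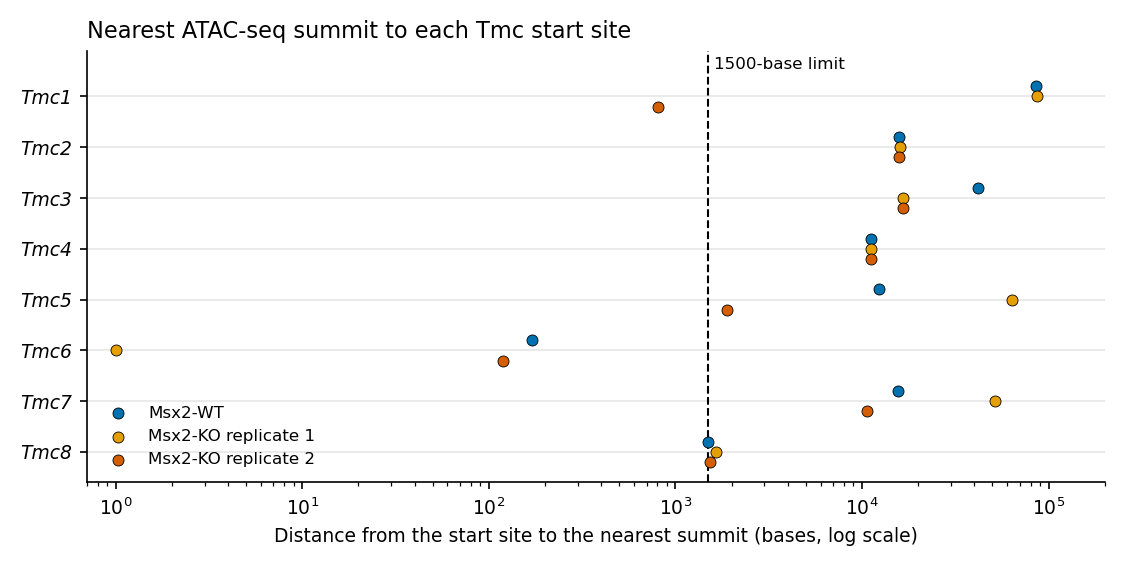
Distance in bases, on a log axis, from a start site of each Tmc gene to the nearest summit past a q-value of 0.01, with 1 point per library. The dashed line is the 1500-base limit of a promoter peak; all 3 Tmc6 points lie at or below 171 bases, the Tmc8 points lie between 1487 and 1659, and Tmc2, Tmc3, Tmc4 and Tmc7 have no point under 10000 bases.

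Of the hair cell channel genes, Tmc1 had its peaks in Msx2-KO replicate 2 and Tmc2 had none. Tmc1 (chr19:20783458-20954202, minus strand) spans 170745 bases, the longest of the family. Its promoter peak at chr19:20954278-20955128 had a summit of 12 tags (6.20 to 21.0) 810 bases before the start, with a −log10 q of 8.11. In Msx2-KO replicate 1 a peak of 3 tags was listed 712 bases before the start but missed the threshold, and in Msx2-WT no peak was listed there. A stronger peak of 19 tags (−log10 q 11.7) lay in intron 7 at chr19:20867856-20868571, and one of 6 tags in the last exon, exon 21. None of these was past the threshold in the other libraries. The intron 7 ratio of 24.0 in replicate 2 would correspond to 41.8 tags at the depth of Msx2-WT and to 11.4 in replicate 1. After allowing for the median of shared regions the figures were 18.2 and 8.7 tags. At the promoter the corresponding figures were 11.5 tags in Msx2-WT and 5.5 in replicate 1. The weakest peaks past the threshold held 9 tags in Msx2-WT and 5 in replicate 1, and the part of depth in these absences was not tested. At the threshold the 2 Msx2-KO libraries differed from each other at Tmc1. With every deposited peak counted, a peak lay at the Tmc1 promoter in replicates 1 and 2 but not in Msx2-WT.

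The Tmc1 stretch is shown because it carries the summit of replicate 2 (first run of capitals, with 10 bases on each side) and the sub-threshold summit of replicate 1 (second run), which are 98 bases apart. It is chr19:20954864-20955062 of GRCm38, 5′ to 3′ on the minus strand.
Tmc1 upstream: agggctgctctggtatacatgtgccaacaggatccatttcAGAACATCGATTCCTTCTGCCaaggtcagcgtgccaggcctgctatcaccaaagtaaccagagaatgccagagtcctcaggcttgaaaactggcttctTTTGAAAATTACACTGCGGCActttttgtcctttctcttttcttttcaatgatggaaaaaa

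Its G+C content was 44.7%, and none of the 9 motifs was found. Among 21823 windows of the same length and distance from a start, the share that held a motif ran from 1.12% for CCGGAAG to 25.6% for CCAAT. Tmc2 (chr2:130195194-130264445, plus strand), the partner of Tmc1 in immature hair cells, had 1 listed peak, of 5 tags in Msx2-WT, which missed the threshold. Its nearest summit past the threshold was 15818 to 15929 bases before the start in the 3 libraries.

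Tmc7 and Tmc5 lie next to each other on chromosome 7 and had weak peaks away from their starts. Tmc7 (chr7:118535841-118584736, minus strand) had a peak in intron 1 in Msx2-WT (10 tags, −log10 q 3.03) and in Msx2-KO replicate 2 (8 tags, −log10 q 4.35), with summits 16 bases apart. The ratios over background were 5.75 (2.76 to 10.6) and 10.1 (4.37 to 19.9), and their intervals overlapped. In replicate 1 no peak was listed, and the ratio of Msx2-WT would correspond to 2.7 tags and that of replicate 2 to 4.8 tags there. After allowing for the median of shared regions the figures were 4.8 and 3.7 tags. The weakest peak of replicate 1 held 5 tags among those past the threshold and 3 among all those listed. The part of depth in this absence was not tested. The stretch around both summits is shown because the same position was called in libraries of both genotypes. It is chr7:118569115-118569215 of GRCm38, 5′ to 3′ on the minus strand, with the 10 bases on each side of either summit in capitals, which run together.
Tmc7 intron: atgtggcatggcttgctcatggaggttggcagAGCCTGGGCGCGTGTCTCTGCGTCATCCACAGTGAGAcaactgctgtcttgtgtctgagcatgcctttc

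None of the 9 motifs was found in these 101 bases, with shares from 0.668% for CCGGAAG to 14.3% for CCAAT among 61717 windows of that length at summits away from promoters. Tmc5 (chr7:118597297-118675086, plus strand) had a peak of 9 tags in intron 10 in Msx2-WT, with a −log10 q of 2.10, and a peak of 6 tags 1898 bases before the start in replicate 2, with a −log10 q of 2.16. Both were just past the threshold and neither was listed in another library. The ratio of the first would correspond to 4.1 tags in replicate 2, or 9.4 after allowing for the median of shared regions, and that of the second to 13.2 or 5.8 tags in Msx2-WT, where the weakest peaks held 6 and 9 tags. Among all listed peaks the weakest held 3 tags in replicate 2 and 5 in Msx2-WT. The part of depth in these absences was not tested. At the Tmc5 start itself a peak of 5 tags was listed in Msx2-WT and missed the threshold.

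Tmc3 and Tmc4, also on chromosome 7, had no peak past the threshold by summit. Tmc3 (chr7:83584927-83625614, plus strand) had 3 listed peaks in Msx2-WT, 1 of them 37 bases before the start with 6 tags, and 2 in replicate 2, all short of the threshold. Tmc4 (chr7:3665790-3677553, minus strand), which encodes a chloride channel of taste cells, ended in a strong peak of all 3 libraries whose summits lay beyond the gene end. The summits were at 3665556 in Msx2-WT (49 tags), 3665618 in replicate 1 (30 tags) and 3665589 in replicate 2 (59 tags), and were 222 to 284 bases past the start of the neighbouring gene Leng1. The peaks overlapped the last 166, 275 and 247 bases of Tmc4. Over the library background the ratio was 28.2 (20.9 to 37.3), 63.0 (42.5 to 90.0) and 74.7 (56.8 to 96.3), and the Msx2-KO values were above the interval of Msx2-WT. Set over the median of the shared regions, the values were 2.13 (1.58 to 2.82), 2.73 (1.84 to 3.89) and 2.46 (1.87 to 3.17), and all 3 intervals overlapped. With the comprehensive annotation, in which the short transcript Tmc4-206 starts near this end, the peak counted as a Tmc4 promoter peak in all 3 libraries.

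**Figure D4:**
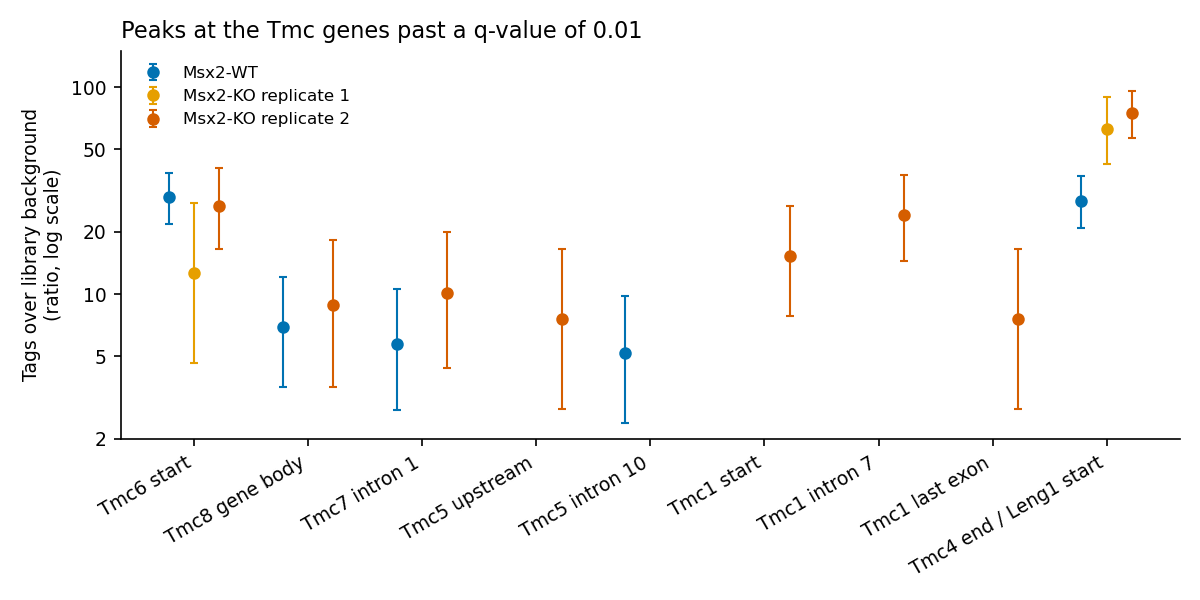
Tags over library background, as a ratio on a log axis, at the highest summit of each peak past a q-value of 0.01 at the Tmc genes, with 1 point per library and exact 95% Poisson intervals for counting error. Positions without a point had no such peak in that library; the Tmc6 start and the Tmc4 end are the positions with a point from each of the 3 libraries.

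Genes known to work with the TMC proteins were read in the same way. Both partners of the EVER proteins, Cib1 and the zinc transporter gene Slc30a1, had promoter peaks in all 3 libraries. Cib1 had 42, 23 and 47 tags and Slc30a1 had 44, 8 and 42 in Msx2-WT, replicate 1 and replicate 2. Of 6 genes of the hair cell transduction complex, Cib2 and Tmie had promoter peaks in all 3 libraries, with 27, 7 and 12 tags at Cib2 and 20, 5 and 12 at Tmie. The other 4, Pcdh15, Cdh23, Lhfpl5 and Cib3, had none in any library. Of 13 anoctamin and Tmem63 genes, 4, 4 and 6 had a promoter peak, with Ano6, Ano10, Tmem63a and Tmem63b in all 3 libraries. Over all protein-coding genes the shares with a promoter peak were 47.0%, 37.8% and 53.5%. No gene of these lists had a promoter peak in Msx2-WT alone (2.11% of all genes) or in both Msx2-KO libraries alone (2.31%). Lists this short can hold none at such shares, so the absence is no result.

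Around the EVER pair, 8 protein-coding genes start within 100 kb of Tmc6 or Tmc8, and 5, 2 and 5 of them had a promoter peak. The shares over all genes were 47.0%, 37.8% and 53.5%. Some genes shared a peak. Tk1 and Afmid, which share a bidirectional start, had 30, 9 and 17 tags. Syngr2 and Gm20708, which start at the same base, had 18 tags in Msx2-WT and 8 in replicate 2. Birc5, which encodes survivin, had 36 tags in Msx2-WT and 10 in replicate 2. None of the 8 had a promoter peak in Msx2-WT alone, beside 2.11% of all genes. The 5 autosomal genes most like Tmc8, by the nearest −log10 q among genes whose promoter had a Msx2-WT peak and no listed peak of either Msx2-KO library, were Lrrc46, Mrpl10, Zfp932, Gm10715 and Dazap1. Their −log10 q ran from 15.5 to 22.3, beside 27.8 at Tmc8. Their summits lay 37 to 861 bases from the start, and in none of the 5 did the Msx2-WT peak overlap a Msx2-KO peak, unlike that of Tmc8. The selection largely set this contrast, since genes with a listed Msx2-KO promoter peak were left out, so it is no result. Lrrc46 and Mrpl10 shared 1 peak. Gm10715 stood apart in tags, with 203 tags, or 116.8 over background, at a −log10 q of 15.6. The others held 24 to 46 tags.

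Markers of other cells that the sort could hold were read the same way, since lymphocytes are known to express Tmc6 and Tmc8. For the lists below, the shares of all protein-coding genes with a promoter peak were 47.0%, 37.8% and 53.5%. The shares with a gene region peak were 60.5%, 48.7% and 65.5%. Of 17 leukocyte genes, 0 had a promoter peak in any library, and 5, 0 and 2 had a peak in their gene region. Lck and Coro1a had a gene region peak in Msx2-WT and replicate 2, and Itgam, Cd52 and Rac2 in Msx2-WT, while the other 12, Ptprc, Cd3e and Csf1r among them, had none in any library. Of 4 genes of differentiated epidermis, Krt10 (10 tags) and Ivl (15 tags) had a promoter peak in Msx2-WT alone, beside 2.11% of all genes. The other 2 had none, and the lowest tag number that passed in Msx2-WT was 9. A gene region peak was found for 4, 1 and 3 of the 4. Lor had one in all 3 libraries, Krt1 and Ivl in Msx2-WT and replicate 2, and Krt10 in Msx2-WT alone. Of 5 melanocyte genes, Dct and Pmel had promoter peaks in all 3 libraries. Of 7 fibroblast and endothelial genes, 2, 1 and 3 had promoter peaks. Col1a2 had one in both Msx2-KO libraries alone (9 and 16 tags), beside 2.31% of all genes. Beside the shares over all genes, these small counts of melanocyte, fibroblast and endothelial genes are no result. Tags over background were summed over the promoter peaks past the threshold in each list. The sums were 14.4, 0 and 0 for differentiated epidermis and 25.3, 67.2 and 70.9 for melanocyte genes. For fibroblast and endothelial genes they were 17.8, 18.9 and 46.8. A 0 means that no promoter peak passed, not that there were no tags, and the part of depth there was not tested. The HFSC markers gave 124.3, 182.8 and 292.3, and the median ratio of shared regions was 13.2, 23.1 and 30.4. A higher Msx2-KO sum by itself is therefore no result about other cells. The part of other cells in the Tmc peaks was not tested.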

How the data were processed

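Omni-ATAC-seq peak lists of sorted HFSCs were used, 1 per library. Per the methods of the study, reads were trimmed with Trimmomatic, aligned to GRCm38 with BWA-MEM, and peaks were called by MACS2 (no shifting model, duplicates kept). Tags are therefore not all independent molecules. The MACS2 version is not given in the sources used here. The authors deposited a fold enrichment (ratio) at each summit, with its −log10 p and −log10 q, per library and not pooled. The lists hold summits down to a p-value of 0.01, and a −log10 q above 2 was required here. Mitochondrial summits were left out.

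The tag number was solved as the whole number that gives both the deposited fold and −log10 p, and was found for at least 99.95% of summits per library. Recovery was tested on simulated data. Start sites came from GENCODE M21, and sequences from the GRCm38 genome. Samples were grouped by the labels, and no p-value between genotypes was computed. All members were named, with list genes whose promoter state differed between genotypes and the 5 genes most like Tmc8. Members, lists and motifs were chosen with earlier results of these data known. Computation was in Python 3.11.15 with pandas 2.3.3, numpy 2.4.6 and scipy 1.17.1, and plotting in matplotlib 3.10.9.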

Additional observations from a re-analysis of the deposited data

How the results depend on the processing

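Of 97 values from other settings for the counts of Tmc genes and regions, 50 stayed within 1.5 times the reported count and 47 did not; with counts this small, 1 gene decides most of them. The call of Tmc8 in Msx2-WT alone, 1 gene as reported, came to 0 with promoter windows of 500 and 3000 bases, with any overlap of the peak interval and with comprehensive start sites. It came to 3 with every deposited peak, where Tmc3 and Tmc5 joined. Leaving out either Msx2-KO library kept it at 1 to 1. The count for both Msx2-KO libraries alone, 0 as reported, was 1 with every deposited peak, and leaving out 1 Msx2-KO library gave 0 to 1. In both cases the gene was Tmc1, the second being the value without Msx2-KO replicate 1. Comprehensive start sites and placing peaks by overlap with the gene region were chosen after seeing the data.

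Promoter peaks numbered 2 in Msx2-WT, 1 in replicate 1 and 2 in replicate 2. They numbered 4 in Msx2-WT and 2 in replicate 1 with every deposited peak, 0 in replicate 1 at a −log10 q of at least 5, and 1 in Msx2-WT and 1 in replicate 2 with a window of 500 bases. A window of 3000 bases gave 2 in replicate 1 and 4 in replicate 2, any overlap of the interval 2 and 4, and comprehensive start sites 3 and 4.

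Gene regions with a peak numbered 4, 2 and 5, and merged regions 4, 1 and 7 with 1 in all 3 libraries. At a −log10 q of at least 5 there were 2, 0 and 3 gene regions, and 1, 0 and 3 merged regions with 0 in all 3 libraries. With every deposited peak there were 7 and 4 gene regions in Msx2-WT and replicate 1, and 16, 4 and 17 merged regions. Lists of equal length, 19450 summits each, gave 2 gene regions in Msx2-WT and 3 in replicate 2, and 1 and 3 merged regions. Scaling to the shallowest depth gave 2 gene regions in Msx2-WT, and 1 merged region in Msx2-WT and 4 in replicate 2. Without the 10 kb before the start, replicate 1 had 1 gene region. With 10 kb after the end added there were 7, 6 and 8 gene regions, and 11, 5 and 13 merged regions with 5 in all 3 libraries. Placing peaks by overlap with the region gave 2 merged regions in replicate 1 and 2 in all 3 libraries.

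Over the local background the ratio moved outside its counting interval at 6 of 15 peaks: at the Tmc6 start to 9.23 in Msx2-WT and 11.65 in replicate 2, at Tmc1 intron 7 to 11.46, and at the Tmc4 end to 15.57, 14.15 and 13.95 in Msx2-WT, replicate 1 and replicate 2. The cause was not tested. No paired analysis was possible, because the labels pair no wild-type mouse with a knockout mouse and there was 1 Msx2-WT library. Msx2-KO replicate 1 is the shallowest library, and 1 Msx2-WT library leaves the spread of wild-type mice unknown.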
